A study of Mus musculus with 28 samples.

Results

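HRas and NRas are closely related small GTPases, and losing both need not have the effect that the separate losses add up to. The quantity described here is the difference of differences in untreated newborn mouse lung, that is DKO minus HRas-KO minus NRas-KO plus Control, computed on log2 values for every probe set named with 1 gene symbol. It is 0 where the change in the double knockout (DKO) equals the sum of the changes in both single knockouts, which will be called the additive level. The members were the 14 untreated arrays of 28 in the series, chosen by their source labels, and 23521 of 41345 probe sets carried 1 symbol, standing for 22180 genes.

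Each array held total RNA of the whole lung of 1 animal collected at postnatal day 0. The untreated groups were Control (3 animals), HRas-KO (3, lacking HRAS), NRas-KO (3, lacking NRAS) and DKO (5, lacking both), and the series title states that DKO newborns die of respiratory distress. The other 14 arrays came from pups of the same 4 genotypes whose mothers received 0.5% N-acetyl cysteine (NAC, an antioxidant and cysteine source) during pregnancy, with 4 Control, 3 HRas-KO, 3 NRas-KO and 4 DKO animals. Exposure was taken from the source labels, since a general note lists just 3 samples as treated and NAC is missing from the titles of the exposed HRas-KO pups. Alleles, strain and the relation of controls to knockouts are not given in the sources used here. This comparison asks whether either GTPase covers for the other, gene by gene.

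Ras proteins switch on when growth factor receptors load them with GTP, and active Ras drives the RAF, MEK and ERK kinases as well as PI3K. HRas and NRas share almost the same effector-binding region. In the lung, FGF receptors signal through Ras and ERK in the distal epithelium, where ERK induces ETS family transcription factors of the Etv group.

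The arrays came from lung by their defining markers. In the 14 untreated arrays the log2 level of Sftpc (surfactant protein C) lay between 12.99 and 13.23 and that of Pecam1 (an endothelial adhesion molecule) between 10.85 and 11.03. Nras read 8.07, 8.30 and 8.35 in Control and 8.33, 8.12 and 8.35 in HRas-KO, against 7.77, 7.72 and 7.58 in NRas-KO and 7.74, 7.64, 7.40, 7.70 and 7.66 in DKO, so that the arrays labelled as lacking NRAS were all below the others. The array labelled DKO+NAC replicate 4 read 8.08, against 7.56 to 7.74 in the other 3 of its group and 8.07 in the lowest Control array, so its Nras level goes against its label. The main NAC results are also given without it. No check of the HRas-KO label was made, as Hras was not analysed here. Sample titles end in an animal code, whose start may mark a litter or a collection, although the labels do not say so. Untreated arrays of different groups correlated in their deviations from group means at 0.226 on average where they shared a code start (11 pairs) and at -0.041 where they did not (61 pairs). The code starts of the 5 DKO arrays occurred in no other untreated group, and there genotype and code start cannot be told apart. p-values measure the spread between animals within groups.

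Among all probe sets, 51 genes departed from the additive level in the untreated arm, 32 above it and 19 below it. Highest above it among the named genes were Sesn1, Rgs2, Mgat4a, Perp and Rabac1, and farthest below were Nes, Etv5, Gimap4, Gga1 and Ptch1. The 51 were 0.217% of the probe sets tested at a Benjamini-Hochberg adjusted p under 0.05 in limma (0.136% above and 0.0808% below), and their sizes ran from 0.68 to 1.91 on the log2 scale. The balance of directions depended on the processing, with 19 above and 24 below after another quantile normalization. Over all rows of the table there were 38 above and 64 below, but 12 and 48 of these were probe sets with several symbols or none. At an unadjusted p under 0.05 there were 2248 (9.56%, of which 5.33% above and 4.23% below). Just inside the threshold stood Gimap4 with an adjusted p of 0.04998, and just outside Adamts15 (1.12, 0.0537) and Fam168b (-0.78, 0.0539). The count rested on the animals included: it was 10 without Control replicate 3 and 95 without DKO replicate 4. It was 0 without the 5 untreated arrays highest in skeletal muscle markers, a choice made after seeing the data. The count also rested on the estimate of spread. It was 7 when the fit used the 14 untreated arrays alone, which leaves the differences unchanged but takes no spread from the NAC arrays.

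Etv5, Mgat4a and Rabac1 had the smallest adjusted p, 0.000444 each, and their promoters are shown because these genes carry the firmest values below. Each window runs from 250 bases before to 50 bases after the RefSeq start on GRCm38.p6, with capitals marking matches to GGGCGG (GC box) or CCAAT on either strand, and no matches overlap. The Etv5 window lies at chr16:22439521-22439820 (minus strand), that of Mgat4a at chr1:37540967-37541266 (minus strand) and that of Rabac1 at chr7:24972679-24972978 (minus strand). For Etv5 and Mgat4a the table lists 2 starts, and 1 is shown.
Etv5: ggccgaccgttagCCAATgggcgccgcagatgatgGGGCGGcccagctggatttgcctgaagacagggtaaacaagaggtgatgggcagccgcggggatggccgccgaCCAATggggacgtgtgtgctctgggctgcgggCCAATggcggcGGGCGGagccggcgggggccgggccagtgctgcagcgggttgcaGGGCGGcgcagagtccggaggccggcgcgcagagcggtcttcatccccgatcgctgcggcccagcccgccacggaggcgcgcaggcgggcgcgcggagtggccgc
Mgat4a: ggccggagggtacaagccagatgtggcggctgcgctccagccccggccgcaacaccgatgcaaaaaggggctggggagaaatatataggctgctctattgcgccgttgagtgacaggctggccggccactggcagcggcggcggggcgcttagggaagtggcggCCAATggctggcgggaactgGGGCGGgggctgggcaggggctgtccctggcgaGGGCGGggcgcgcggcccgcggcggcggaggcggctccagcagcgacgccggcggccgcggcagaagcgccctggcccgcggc
Rabac1: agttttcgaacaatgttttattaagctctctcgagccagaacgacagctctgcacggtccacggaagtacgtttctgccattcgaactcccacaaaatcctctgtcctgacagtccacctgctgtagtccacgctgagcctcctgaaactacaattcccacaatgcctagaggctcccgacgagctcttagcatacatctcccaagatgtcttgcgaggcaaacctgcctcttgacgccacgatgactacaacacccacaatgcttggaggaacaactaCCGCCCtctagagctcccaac
The Etv5 window held 3 GC boxes and 3 CCAAT matches, that of Mgat4a 2 and 1, and that of Rabac1 a single GC box on the opposite strand, after the start. Windows were found for 45 of the 51 genes. A GC box stood in 72.4% of the 29 windows of genes above the additive level and in 68.8% of the 16 below it, against 46.7% of 16990 windows of genes tested. CCAAT stood in 37.9% and 37.5%, against 38.5%. The ETS letters CCGGAAGT stood in 10.3% and 12.5%, which is only 3 and 2 windows, against 5.22%. CACGTG stood in 13.8% and 6.25% (4 windows and 1), against 8.18%. TGACGTCA and the palindromic NRF1 motif stood in none of the 45 and in 2.45% and 1.37% of all. These shares are a description of letters in a fixed window. Only 1 of the 51 called probe sets had a mean level below the median of the probe sets tested. The shares were not compared with those of genes of similar level.

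Etv5, an ETS transcription factor that FGF and ERK signalling induces and that alveolar type 2 cells need, was lower in DKO alone. Its log2 level was 8.79, 8.70 and 8.20 in Control, 9.16, 9.06 and 8.83 in HRas-KO, 8.82, 8.54 and 8.79 in NRas-KO, and 7.27, 7.23, 7.26, 7.81 and 7.35 in DKO. All 5 DKO arrays were below all 9 others, while the single knockouts averaged 0.45 and 0.15 above Control. The difference of differences was -1.78 (95% interval -2.26 to -1.30), a level 3.43-fold below the additive one, and DKO itself was 2.27-fold below Control. A second, dimmer Etv5 probe set (level 5.37) did not show this, with a difference of 0.04.

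Of the other ERK feedback genes and targets, none passed the test. The list held 24 probe sets of 21 genes, 1 called (Etv5), with a median difference of -0.06 beside 0.00089 over all probe sets. At an unadjusted p under 0.05 it had 0 above and 4 below, Etv5 among them. The shares over all probe sets were 5.33% and 4.23%. Ccnd1 (cyclin D1) had a difference of -1.15 (adjusted p = 0.142), Phlda1 -0.85 (0.278) and Spry1, a Sprouty feedback inhibitor of receptor signalling, -0.42 (0.382). In the Ras to ERK cascade itself, 0 of 23 probe sets were called, 1 reached an unadjusted p under 0.05, and the median was -0.04. Sos2, an exchange factor that loads Ras with GTP, had the smallest p there, with a difference of 0.39 (adjusted p = 0.309).

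**Figure D1:**
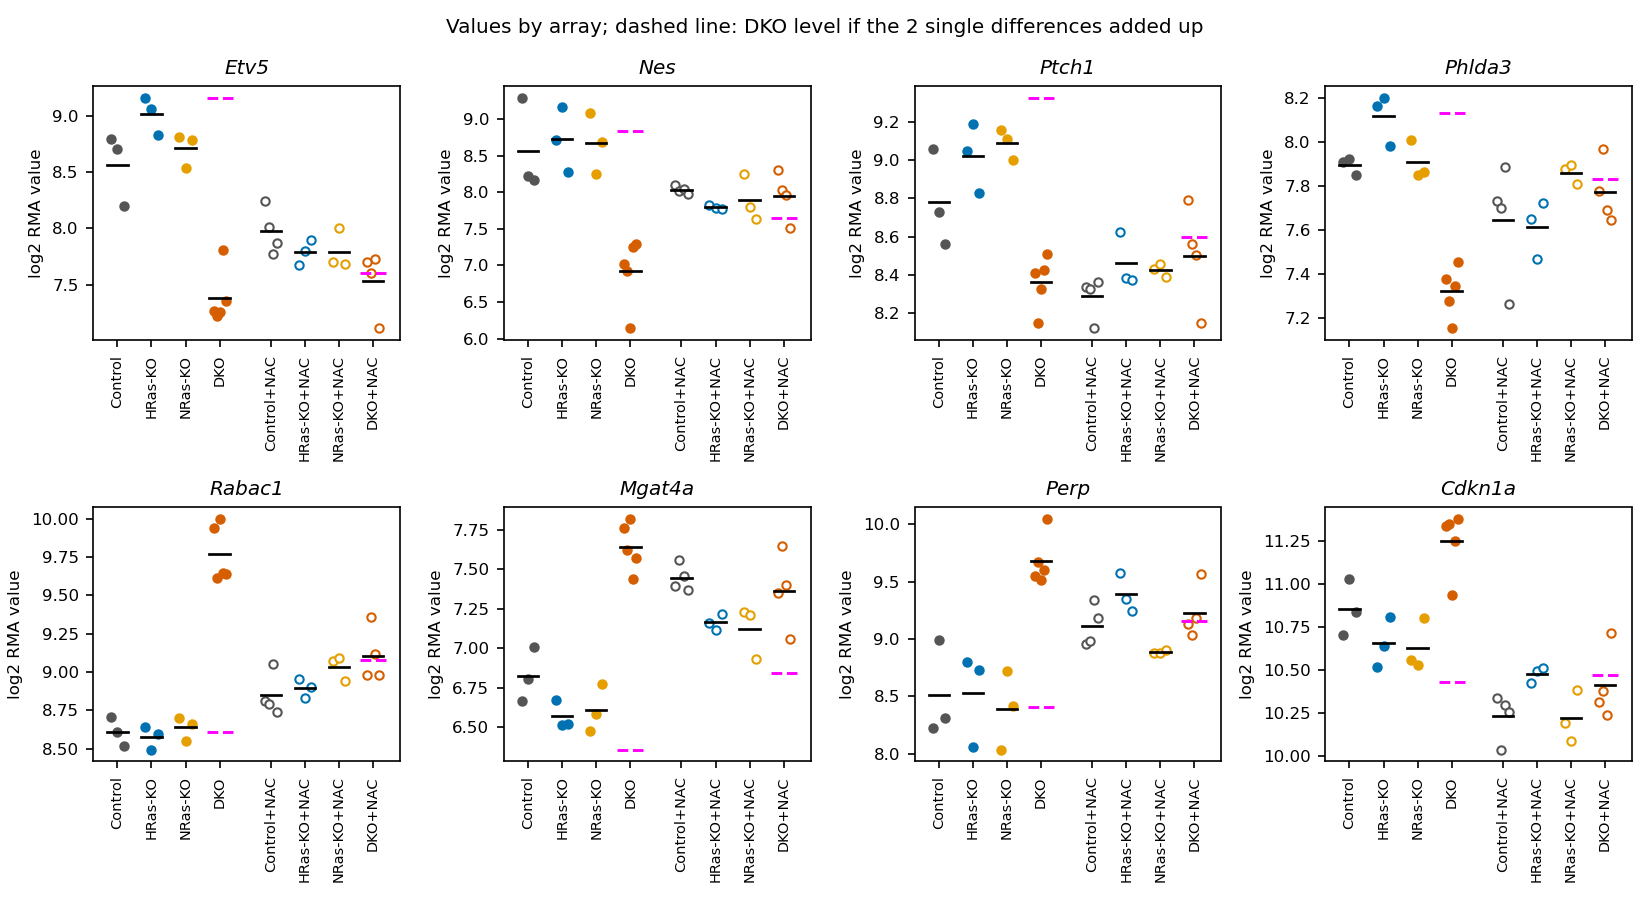
Log2 level (vertical axis) of 8 called genes on every array, by group, untreated as filled and NAC as open points. Black bars are group means and the dashed line is the DKO level that the single differences would add up to. In the untreated arm the DKO mean of Etv5 (7.38) lies far below its dashed line (9.16) and that of Rabac1 (9.77) far above its own (8.61), whereas in the NAC arm the DKO+NAC means lie near the dashed lines for most panels, Mgat4a being 0.52 above.

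Rabac1, the prenylated Rab acceptor that sits at the Golgi and binds prenylated small GTPases, was raised in DKO alone. It read 8.71, 8.61 and 8.52 in Control, 8.64, 8.49 and 8.60 in HRas-KO, 8.70, 8.55 and 8.66 in NRas-KO, and 9.94, 9.62, 9.998, 9.65 and 9.64 in DKO. The 9 arrays with at least 1 of both GTPases lay within a narrow band and the DKO arrays stood clear of it, with single differences of -0.03 and 0.03. The difference of differences was 1.16 (0.84 to 1.48), or 2.24-fold, nearly all of it the 2.23-fold rise over Control.

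Gga1, a clathrin adaptor of the trans-Golgi network, went the other way. Its levels were 8.18, 8.29 and 7.67 in Control, 8.21, 8.08 and 8.25 in HRas-KO, 8.24, 7.96 and 8.09 in NRas-KO, and 7.34, 7.09, 7.14, 7.47 and 7.21 in DKO, where every array was below the others. Its difference of differences was -0.98 (adjusted p = 0.0199). Rabac1 and Gga1 were the called members, 1 each way, of 26 probe sets for Golgi adaptors and Rab delivery, whose median was -0.09.

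Mgat4a, a Golgi enzyme that adds a branch to N-linked glycans, differed in that both single knockouts lay somewhat below Control. It read 6.67, 6.80 and 7.01 in Control, 6.67, 6.52 and 6.52 in HRas-KO, 6.48, 6.59 and 6.77 in NRas-KO, and 7.76, 7.62, 7.82, 7.44 and 7.57 in DKO. DKO arrays again lay outside the range of the others. The single differences were -0.26 and -0.21, DKO was 1.76-fold above Control, and the difference of differences was 1.29 (0.94 to 1.64). No other of the 20 probe sets for N-glycan branching and processing was called (median -0.01), and Man2a1, a Golgi mannosidase, came next with 0.62 (adjusted p = 0.207).

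Targets of p53 were the list with the most called members, 3 above the additive level and 1 below among 22 probe sets, with a median of 0.20. These calls depended on the arrays included. Of 28 fits that each left out 1 array, Sesn1 was called in 5, Cdkn1a in 9 and Perp in 12, and Phlda3, the call below, in 21. Glucocorticoids and stress kinases also induce some of these genes. Sesn1, a sestrin that restrains mTORC1 under stress, read 8.27, 8.89 and 9.24 in Control, 8.23, 8.28 and 8.69 in HRas-KO, 8.18, 8.74 and 8.75 in NRas-KO, and 9.56, 9.35, 10.19, 9.27 and 9.48 in DKO. The lowest DKO array stood only slightly above the highest control, and the difference of 1.41 (0.78 to 2.04, adjusted p = 0.0471) included single differences of -0.40 and -0.24. Perp, a membrane protein of desmosomes, read 8.22, 8.99 and 8.31 in Control, 8.80, 8.06 and 8.73 in HRas-KO, 8.03, 8.72 and 8.42 in NRas-KO, and 9.55, 9.67, 9.52, 9.60 and 10.05 in DKO. Here the single knockouts stayed near Control and DKO was 2.25-fold above it, for a difference of 1.27 (adjusted p = 0.0457).

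Cdkn1a, the cyclin-dependent kinase inhibitor p21, read 10.70, 11.03 and 10.84 in Control, 10.52, 10.64 and 10.81 in HRas-KO, 10.56, 10.53 and 10.80 in NRas-KO, and 11.34, 11.35, 10.93, 11.25 and 11.37 in DKO. DKO replicate 3 overlapped the Control range. Its difference was 0.82 (adjusted p = 0.0457), of which DKO over Control made up 0.39 on the log2 scale and the lower single knockouts the rest. Phlda3, which competes with Akt for membrane lipids, was the called p53 target below the additive level, at 7.91, 7.92 and 7.85 in Control, 8.17, 8.20 and 7.98 in HRas-KO, 8.01, 7.85 and 7.87 in NRas-KO, and 7.38, 7.28, 7.15, 7.34 and 7.45 in DKO. All 5 DKO arrays were below the other 9 and its difference was -0.81 (adjusted p = 0.0314), so the called members of this list did not share 1 direction.

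Sesn1 was also the called member of 25 probe sets for sestrins and mTORC1 regulators (median 0.16, 20 positive), where Ddit4 (REDD1, an mTORC1 inhibitor) had 1.18 with an adjusted p of 0.137. Cdkn1a was also the called member of 24 glucocorticoid-induced probe sets, which had a median of 0.23 and 20 positive values, against 11811 positive of 23521 overall. Uncalled members there were Pdk4, a kinase that inhibits pyruvate dehydrogenase (0.86, adjusted p = 0.0821), Rasd1, a dexamethasone-induced Ras-like GTPase (1.68, 0.120), and Fkbp5, a chaperone of the glucocorticoid receptor (0.75, 0.134). For Pdk4 the difference came from the single knockouts, 0.40 and 0.59 below Control, since DKO was 0.13 below Control too.

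**Figure D2:**
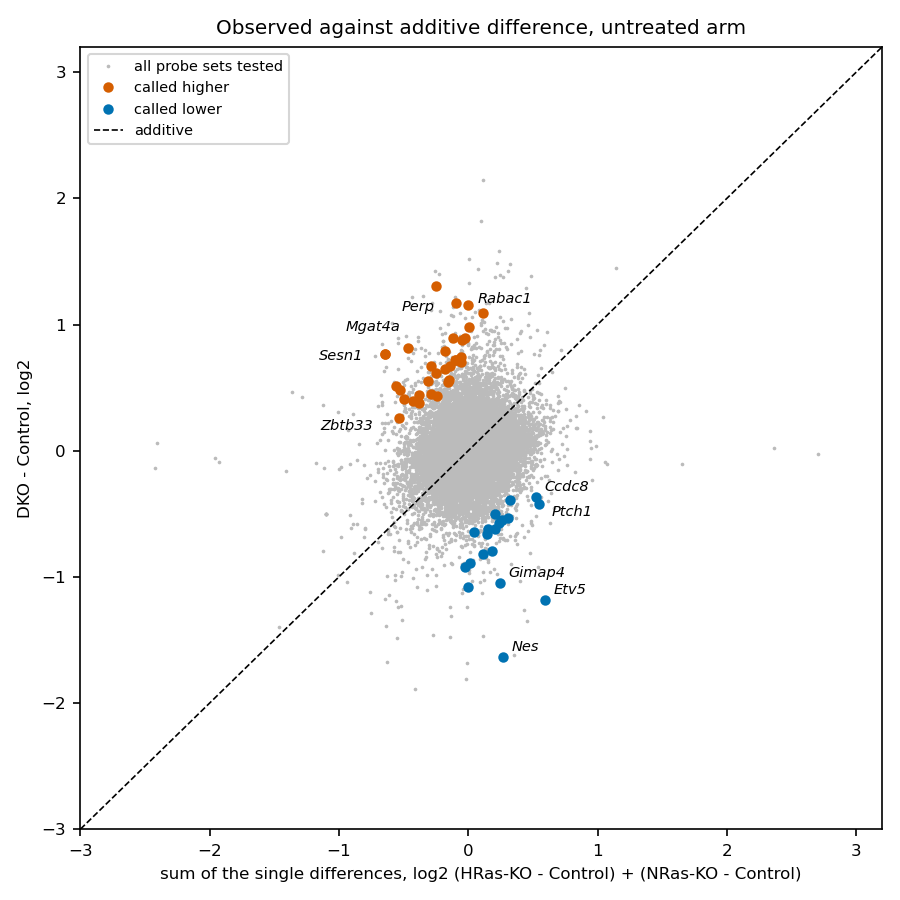
DKO minus Control (vertical axis, log2) against the sum of both single differences (horizontal axis, log2) for all probe sets tested in grey and the called genes in colour. The dashed diagonal is additivity. Called genes lie off the diagonal mainly in the vertical direction, with a median of 77.9% of the difference of differences made up by DKO minus Control and Zbtb33 lowest at 32.9%.

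Nes, the intermediate filament nestin of progenitors and growing vessels, had the largest called difference below the additive level. It read 9.30, 8.23 and 8.17 in Control, 8.72, 9.17 and 8.28 in HRas-KO, 9.08, 8.25 and 8.69 in NRas-KO, and 7.02, 6.93, 6.14, 7.25 and 7.29 in DKO. The SD was 0.63 in Control, 0.44 in HRas-KO and 0.42 in NRas-KO, but all 9 arrays were above every DKO array, and DKO was 3.11-fold below Control. The difference of differences was -1.91 (-2.69 to -1.13, adjusted p = 0.0286). None of the other 19 probe sets for nestin, PDGF and pericytes was called (list median -0.19), Pdgfb among them at -1.24 (adjusted p = 0.237).

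No endothelial gene passed among 25 probe sets (median -0.12). Kdr (VEGF receptor 2) came nearest at -0.95 (adjusted p = 0.0632), then Plvap, of endothelial diaphragms, at -0.99 (0.0825) and Erg, an endothelial ETS factor, at -0.85 (0.0917). In the smooth muscle list 0 of 16 passed, yet 15 were negative and the median was -0.37, with Nexn, an actin-binding protein, at -1.70 (adjusted p = 0.0695) and Tpm1 (tropomyosin) at -0.55 (0.0834). Eln (elastin) had -0.78 (0.0605) among 13 elastic fibre probe sets, none of which passed. Elk3, an ETS factor of the ternary complex class, was called at -0.68 (adjusted p = 0.0426) and belonged to none of these lists.

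Ptch1, the Hedgehog receptor and itself a Hedgehog target, fell below the additive level from both ends. It read 9.06, 8.73 and 8.56 in Control, 9.05, 9.19 and 8.83 in HRas-KO, 9.16, 9.11 and 9.001 in NRas-KO, and 8.41, 8.15, 8.32, 8.42 and 8.51 in DKO. DKO arrays were all below the others, but DKO minus Control was only -0.42 and the single knockouts averaged 0.24 and 0.31 above Control, which together gave -0.96 (-1.34 to -0.59, adjusted p = 0.0214). Of 18 Hedgehog probe sets only Ptch1 was called, 14 were negative and the median was -0.18. Gli1, the transcription factor that reports pathway output, had -0.62 (adjusted p = 0.217).

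Muc1, a transmembrane mucin of the airway and alveolar epithelium, was called with Etv5 in the surfactant and alveolar type 2 list (2 of 25 probe sets, both below; median -0.25, 19 negative). It read 11.26, 11.27 and 10.98 in Control, 11.30, 11.37 and 11.32 in HRas-KO, 11.35, 11.15 and 11.15 in NRas-KO, and 10.40, 10.69, 10.37, 10.72 and 10.56 in DKO, where every array was below the other 9. Its difference was -0.83 (adjusted p = 0.0270). In bulk lung, fewer cells of a type and less RNA per cell cannot be told apart. Uncalled members included Slc34a2, a phosphate transporter of type 2 cells, at -0.53 (0.243), and Lamp3, of lamellar bodies, at -0.52 (0.430). In the alveolar type 1 list 0 of 19 passed (median 0.09).

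Sphingolipid metabolism and oxidative phosphorylation are the themes of the series title, so those lists were not an independent choice. None of 47 sphingolipid probe sets was called (median 0.17, 30 positive), and at an unadjusted p under 0.05 there were 8 above and 1 below. Degs1, the desaturase that completes ceramide synthesis, had 0.61 (adjusted p = 0.0827) and Sphk1, which makes sphingosine 1-phosphate, 0.58 (0.0917). None of 36 complex I probe sets passed (median 0.02), Ndufa11 coming nearest at 0.87 (0.129), and none of 42 for complexes II to V (median -0.02). At an unadjusted p under 0.05 these had 4 above and 1 below, and 4 above and 5 below. Over all probe sets 5.33% were above and 4.23% below at that threshold.

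The interferon list had the lowest median of the 26 pathway lists, -0.47, with 20 of 22 negative and none called. Bst2 (tetherin) was at -1.48 (adjusted p = 0.140) and Iigp1, an interferon-induced GTPase, at -1.19 (0.313). Cholesterol synthesis had the highest median, 0.26, with 14 of 17 positive and none called, and its NAC median was similar at 0.29. Sqle (squalene epoxidase) stood there at 0.85 (0.264). Of the small families, Gimap4, a GTPase of lymphocytes, was called below the additive level (-1.30, 9 Gimap probe sets, median -0.17), and Ms4a4d, a membrane-spanning protein, above it (1.07, 18 Ms4a probe sets, median -0.04). No member passed in the lists for cell cycle (26 probe sets, median -0.12), glutathione, thioredoxin and NRF2 (25, 0.10), hypoxia and glycolysis (20, 0.00), the unfolded protein response (19, 0.10) and lung fluid clearance (12, 0.15), nor in any of the 16 marker lists for other cell types and tissues.

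**Figure D3:**
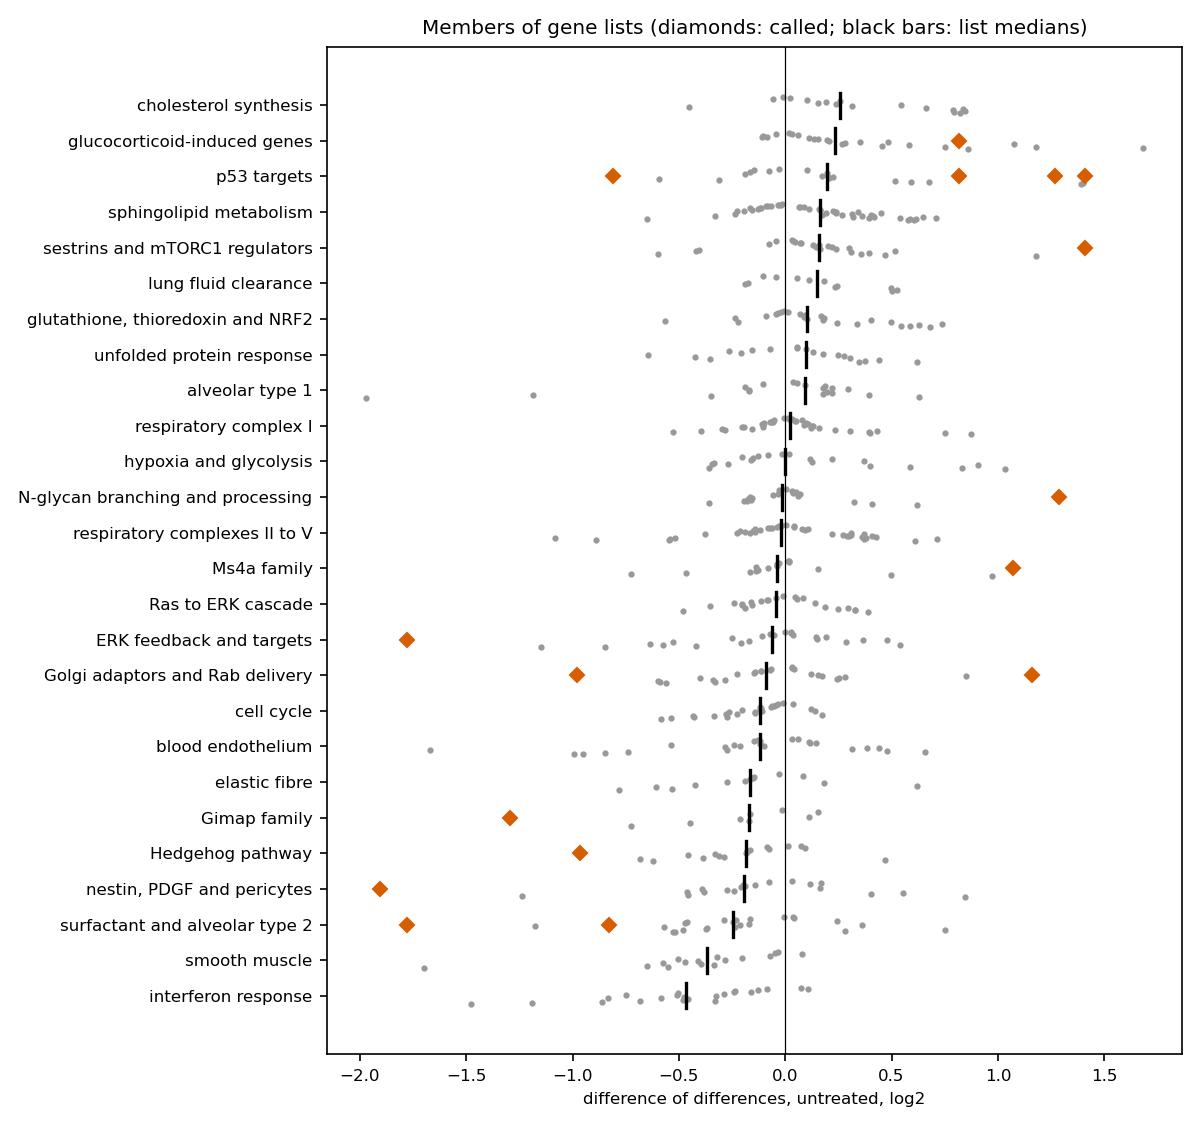
Difference of differences in the untreated arm (horizontal axis, log2) for each probe set of the 26 pathway lists (rows), with called members as diamonds and list medians as black bars. Medians run from -0.47 for interferon response to 0.26 for cholesterol synthesis, and most lists hold no or 1 called member.

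Other named genes above the additive level had varied roles. Phkg2, the catalytic subunit of phosphorylase kinase in liver, read 7.70, 7.92 and 7.76 in Control, 8.13, 7.63 and 7.76 in HRas-KO, 7.81, 7.77 and 7.99 in NRas-KO, and 9.02, 8.85, 8.69, 8.88 and 8.99 in DKO. It was 2.13-fold above Control in DKO alone (difference 0.98, adjusted p = 0.0165). Gfra1, the GDNF co-receptor, read 6.49, 6.37 and 6.57 in Control, 6.43, 6.43 and 6.13 in HRas-KO, 6.28, 6.25 and 6.46 in NRas-KO, and 7.27, 7.10, 6.99, 7.02 and 7.35 in DKO. Its difference was 0.96 (adjusted p = 0.00648), while a dim second probe set (level 3.73) gave -0.06.

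Marchf5, a ubiquitin ligase of the mitochondrial outer membrane, had a difference of 1.01, Atp6v0e, a subunit of the vacuolar proton pump, 0.97, and Dnpep, an aspartyl aminopeptidase, 0.92. Dgkh, a diacylglycerol kinase, had 1.00 and Mtmr1, a phosphoinositide phosphatase, 0.91. Fam98b, of the tRNA ligase complex, had 0.97 and Rnh1, the ribonuclease inhibitor, 0.92. The adjusted p-values of these 7 lay between 0.0163 and 0.0470. Rgs2, which speeds GTP hydrolysis by G proteins, was called on a dim probe set (mean level 4.59, below the median of 5.68 over all probe sets) with 1.41, while its brighter probe set had 1.02 and an adjusted p of 0.152.

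Hnrnpa2b1, an RNA-binding protein of splicing and transport, read 9.77, 9.77 and 10.08 in Control, 10.01, 9.80 and 10.03 in HRas-KO, 9.72, 9.84 and 9.89 in NRas-KO, and 9.03, 9.24, 8.87, 8.79 and 8.97 in DKO. The single knockouts sat at the Control level and DKO was 1.86-fold lower, for a difference of -0.91 (adjusted p = 0.0199). Nono, a paraspeckle protein, had -0.77, Sf3a1, a splicing factor subunit, -0.84, and Prrc2a, an RNA-binding protein, -0.94. Anp32b, a nuclear histone chaperone, had -0.90.

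The remaining named genes below the additive level were Arrb2 (beta-arrestin 2, which uncouples receptors from G proteins) at -0.81, Cadm1 (an adhesion molecule) at -0.81 and Ccdc8 (a partner of the cullin 7 ligase) at -0.89. Their adjusted p-values were 0.0214, 0.0342 and 0.0470. For Ccdc8 the NRas-KO arrays were 0.39 above Control, beyond the HRas-KO mean of 0.14.

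Single knockouts near Control were common among the 51 genes, though less so than among all probe sets. Both averaged within 0.3 of Control on the log2 scale in 41 of 51 genes, against 96.2% of all probe sets. The other 10 of 51, a larger share than the 3.47% of all probe sets, had 1 single knockout or both beyond 0.3 without a common side. In 0 of 51 did both lie beyond it on the side opposite to DKO, against 0.0638% of all, and in 0 on the same side, against 0.230%. DKO minus Control was on the side of the departure in 51 of 51 and made up a median of 77.9% of its size (range 32.9% to 111%). In 36 genes both single differences lay on the side opposite to the departure, and in 1 both lay on its side. These shares come from the same values that chose the genes and are a description. The contrast subtracts both single differences, so the choice favours opposite signs, and the share of such signs over all probe sets was not computed.

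The DKO arrays lay all above or all below the other 9 in 46 of 51 genes, a pattern found in 4.19% of all probe sets. They lay all above in 29 of 32 (2.58% of all probe sets) and all below in 17 of 19 (1.61%). The exceptions were Mtmr1, Rgs2, Cdkn1a, Sf3a1 and Ccdc8. On linear values the difference of differences kept its sign in 51 of 51, against 97.8% of all probe sets. The same values chose the 51 genes, which favours both patterns, so these shares too are only a description. DKO arrays also varied more among themselves, with a median SD over probe sets of 0.161 against 0.125 in Control, 0.115 in HRas-KO and 0.123 in NRas-KO.

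Markers of some other tissues stood apart in the DKO arrays. The mean of 7 measured erythroid markers of 13, each taken relative to its mean over all arrays, was 0.18 to 0.83 in DKO and -0.34 to 0.17 in the other 3 untreated groups. That of all 8 brown fat markers was 0.043 to 0.34 in DKO and -0.14 to 0.041 in the others, and that of 88 small RNA probe sets was 0.19 to 0.83 against -0.57 to 0.08. None of these ranges overlapped, though those of the erythroid and brown fat markers nearly met. Such separation was not particular to markers of other tissues, and some pathway lists, though not all, had it too. Means of p53 targets were 0.117 to 0.197 in DKO and at most -0.036 in the others. Means of interferon genes were at most -0.203 in DKO and at least -0.154 in the others. The 17 skeletal muscle markers varied within groups, with means of -0.10 to 0.61 for Control arrays, -0.18 to -0.04 for HRas-KO, -0.07 to 1.15 for NRas-KO and -0.19 to 1.204 for DKO. Heart markers were 0.07 to 0.66 in HRas-KO and at most 0.19 in the other untreated groups. Liver markers (8) had the highest median difference of differences among the pathway and marker lists, 1.16 with 7 of 8 positive and none called, and their means were 0.30 to 1.84 in DKO, -0.33 to 1.12 in Control, -1.26 to 0.73 in HRas-KO and -0.30 to 1.34 in NRas-KO. Oesophagus markers (6) reached 1.47 in DKO replicate 5, against at most 0.18 in the other untreated arrays, and epidermis markers (10) 1.35 in NRas-KO replicate 2 and 0.54 in replicate 3, against at most 0.14. With skeletal and heart muscle as covariates 5 genes were called, Etv5, Mgat4a and Rabac1 among them. With the small RNA rows 28 were, 16 of them among the 51, and with the erythroid list 139, 40 of them among the 51. Their part in the results of single genes was not tested further.

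Without the 5 arrays highest in skeletal muscle markers (DKO replicates 1, 3 and 5, NRas-KO replicate 2 and Control replicate 3), no gene passed and 1675 had an unadjusted p under 0.05. There Etv5 had -1.55 (adjusted p = 0.0574), Rabac1 1.03 (0.0574) and Mgat4a 1.07 (0.0804). This fit kept 2 DKO and 2 Control arrays.

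In the NAC arm no probe set passed the test, 0% of those tested, with a smallest adjusted p of 0.469 and 1298 (5.52%, of which 2.51% above and 3.01% below) at an unadjusted p under 0.05. Without the array labelled DKO+NAC replicate 4, 0 passed and 1956 had an unadjusted p under 0.05. The labels used here give no sex. Xist, which marks female animals, was above a log2 level of 7 in 2 of 4 Control+NAC, 0 of 3 HRas-KO+NAC, 1 of 3 NRas-KO+NAC and 4 of 4 DKO+NAC arrays, and in 1 of 3, 2 of 3, 2 of 3 and 2 of 5 untreated arrays in the same order. With the Xist level as a covariate 0 were called in the NAC arm and 62 in the untreated arm, 39 of them among the 51. The 51 genes called without NAC had NAC differences between -0.30 and 0.52, with a median of 0.12 for the 32 above and -0.01 for the 19 below. The sign was the same in both arms for 38 of 51 (27 of 32 and 11 of 19), against 53.4% of all probe sets. The 95% interval of the NAC value held the untreated estimate for 0 of 51. The genes were picked for a large untreated value, which favours this outcome. The check also leaves out the error of the untreated estimate, and its share over all probe sets was not computed.

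In the difference between arms, tested below, Rabac1 and Etv5 had the smallest p of all probe sets. Their NAC values are therefore an extreme case among the 51 genes. Rabac1 read 8.81, 8.79, 9.05 and 8.74 in Control+NAC and 8.98, 9.36, 9.12 and 8.98 in DKO+NAC. Its difference of differences was 0.03 (-0.29 to 0.34). Etv5 read 8.24, 8.01, 7.78 and 7.87 in Control+NAC and 7.70, 7.602, 7.72 and 7.11 in DKO+NAC, where the difference was -0.07 (-0.54 to 0.40). For Etv5 the 4 arrays labelled DKO+NAC were below the Control+NAC arrays, while HRas-KO+NAC and NRas-KO+NAC both averaged 7.79, and for Rabac1 both groups overlapped. Without the array labelled DKO+NAC replicate 4 the differences were 0.07 for Rabac1 and 0.07 for Etv5. Mgat4a kept the largest NAC value, 0.52 (0.18 to 0.87), and was the single gene of the 51 with an unadjusted p under 0.05 there (0.00443). Without that array its value was 0.62, and 3 of the 51 had an unadjusted p under 0.05, with Dnpep at 0.34 and Atp6v0e at 0.37.

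Control means also differed between arms for the genes named next, which was not tested here. Control averaged 8.57 ± 0.32 (SD, n = 3) for Etv5 without NAC and 7.98 ± 0.20 (n = 4) with it, and for Mgat4a 6.83 ± 0.17 (n = 3) and 7.45 ± 0.08 (n = 4). Muc1 averaged 11.17 ± 0.16 (n = 3) and 10.47 ± 0.13 (n = 4). For Etv5 the arrays of both groups overlapped, with 8.20 in Control replicate 3 and 8.24 in Control+NAC replicate 1. No code start occurred in both arms, so NAC and code start cannot be told apart.

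The difference between the arms was itself tested, and no probe set passed (0%), with 1387 (5.90%, of which 3.07% with the higher value without NAC and 2.83% with the lower) at an unadjusted p under 0.05. The smallest adjusted p was 0.221, for Rabac1 and Etv5. Among the 51 chosen genes 50 had an unadjusted p under 0.05 for that difference, Plekha8, a lipid transfer protein of the Golgi, being the exception, but the untreated value that chose them is part of it. In the NAC arm all 4 DKO arrays shared a code start with another group. With code start as a block, the signs agreed for 26 of 32 and 11 of 19. Without the array labelled DKO+NAC replicate 4 they agreed for 24 of 32 and 7 of 19, and 0 probe sets passed the test between the arms, with 1780 at an unadjusted p under 0.05.

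**Figure D4:**
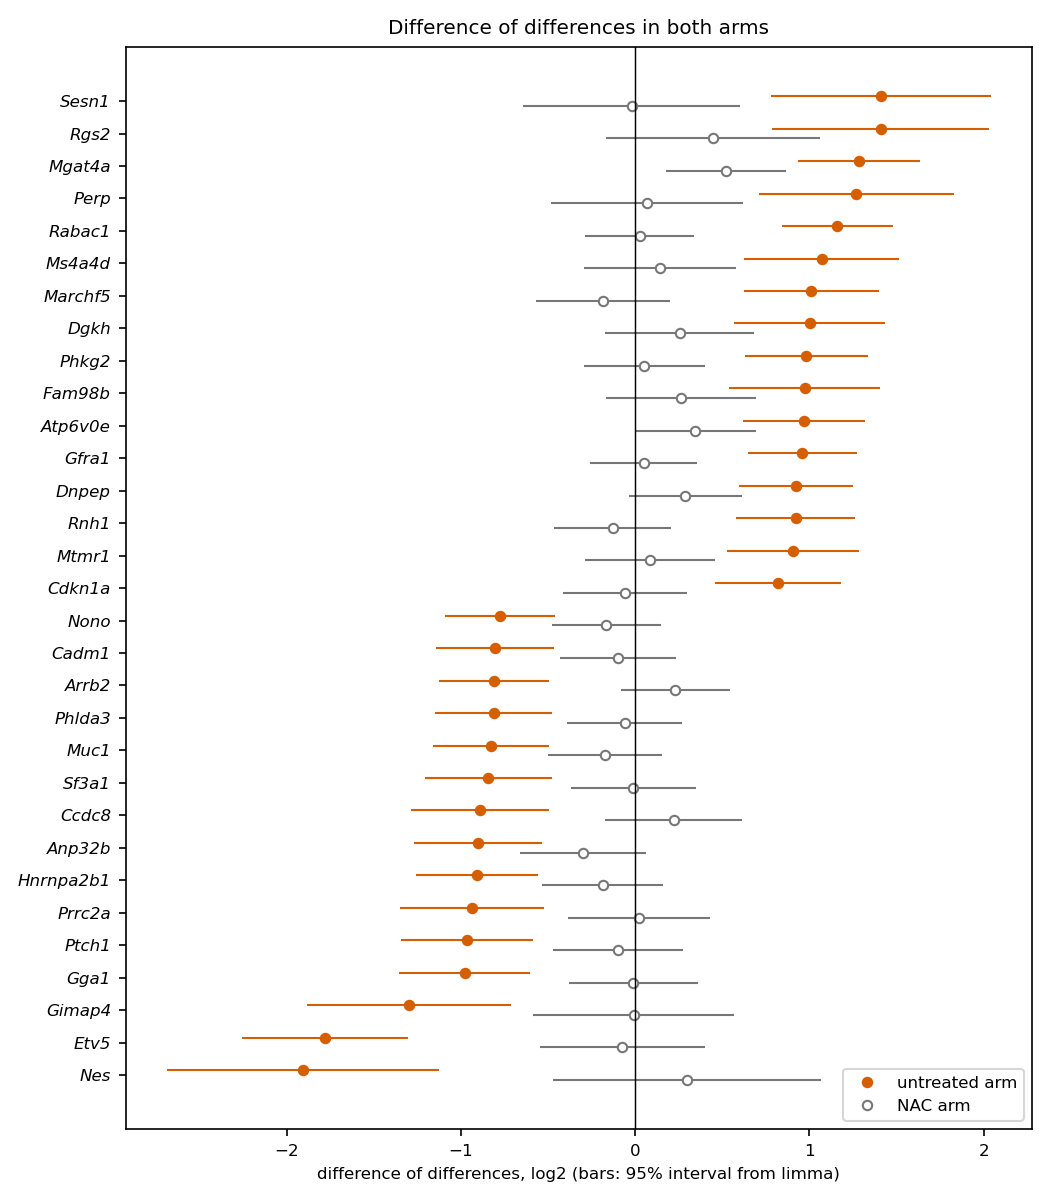
Difference of differences (horizontal axis, log2) for 31 named genes in the untreated arm (filled) and in the NAC arm (open), with 95% intervals from limma. Untreated values run from -1.91 (Nes) to 1.41 (Sesn1) and NAC values lie between -0.30 (Anp32b) and 0.52 (Mgat4a).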

How the data were processed

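The deposited values were log2 expression levels by probe set, and per the submitters' processing notes the authors used RMA and affy. Versions, and whether all arrays were normalized together, are not given in the sources used here. Array medians lay between 5.25 and 5.41, no 2 arrays were identical (highest correlation 0.9933), and the number of arrays limits the precision. By the platform's annotation 23521 probe sets had 1 symbol, 1814 several and 16010 none listed.

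A model of 8 group means was fitted to the 28 arrays with limma 3.58.1 and R 4.3.3 (20 residual and 5.92 prior degrees of freedom), with Benjamini-Hochberg adjustment over all 23521 probe sets in each of 3 tests (untreated arm, NAC arm, and the difference between arms). The fit was tested on simulated data. Named genes were Nras, the 15 largest called differences each way without predicted genes and small RNAs, called list members and up to 4 members of each list with the smallest p. Zbtb33, Plekha8, Clock, Spint2, Elk3, Adamts15 and Fam168b are named outside this rule, after their values were seen. Of 788 gene entries in 42 lists, 733 were measured. Members and lists were chosen with earlier results of these data known. Promoters came from RefSeq (GRCm38.p6).

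The main fit did not pair arrays by replicate number, and whether shared numbers mark pairs is not settled. Same-numbered untreated arrays correlated at 0.063 on average over 18 pairs, 9 of them over 0.1. Differently numbered ones correlated at -0.021 over 54 pairs, 13 of them over 0.1. Alternatives covered probe set choice, filtering, normalization, moderation, array weights, blocks, covariates and each array left out.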

Additional observations from a re-analysis of the deposited data

Results flagged for a closer look

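In 4 of 49 called genes checked, 1 DKO array stood apart from the other 4 by more of the group's range than the 95% limit of Dixon's test, which chance gives in about 1 group in 20. Etv5 read 7.81 in DKO replicate 4 against 7.23 to 7.35 in the others, nearer to the other genotypes. Spint2, a serine protease inhibitor of epithelia, read 8.93 in the same array against 8.71 to 8.77. Clock, a circadian transcription factor, read 10.10 in DKO replicate 3 against 10.50 to 10.52, and Cdkn1a read 10.93 in that array against 11.25 to 11.37.

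Probe sets with several gene symbols or none, which no comparison above used, also departed from the additive level. In a fit over all rows 60 of 17824 such probe sets were called in the untreated arm (0.337%), 12 above and 48 below.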

How the results depend on the processing

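Of 2295 pairs of a called gene and an alternative (51 genes, 45 settings), all had the direction of the reported value and 1581 were called. No gene was called in every setting. Etv5, Mgat4a and Rabac1 were called in 44 of 45, the exception being the fit without the 5 untreated arrays highest in skeletal muscle markers. Those 3, Atp6v0e, Phkg2, Zbtb33, Dnpep and Gfra1 were called in every fit that left out 1 array. The untreated count of 51 became 102 over all rows of the table (38 above and 64 below). It was 83 without the dimmest 40% of probe sets, 331 with array weights and 7 in the 14 untreated arrays. With muscle lists as covariates it was 5, and with the small RNAs as a covariate 28, 16 of them among the 51. Among choices made after seeing the data, it was 139 with the erythroid list, 40 of them among the 51, and 0 without the 5 arrays. Quantile normalization again gave 43, of which 19 were above and 24 below, against 32 and 19 in the values as deposited. Leaving out 1 array gave 10 to 95: 79, 24 and 10 without Control replicates 1, 2 and 3, 25 and 21 without HRas-KO replicates 2 and 3, 25, 18 and 25 without the NRas-KO arrays in the order of their numbers, and 77, 95 and 31 without DKO replicates 2, 4 and 5. The replicate block gave 50, 34 of them shared with the 51. In the NAC arm the count of 0 became 4 over all rows, all 4 of them probe sets with several symbols or none. That count was 3 with muscle lists, and 0 to 4 with 1 array left out (4 without NRas-KO+NAC replicate 2). The arms differed in 27 probe sets over all rows, 26 of them with several symbols or none. They differed in 1 with the erythroid list. With 1 array left out they differed in 0 to 2 (2 without NRas-KO replicate 1 or DKO replicate 4, 1 without HRas-KO+NAC replicate 3). Among uncalled list members, 3 changed sign without the 5 arrays: Rasa1 to -0.0384, St6gal1 to 0.0281 and Mfap5 to -0.0823. The causes were not tested. Code start could not be fitted as a fixed block in the untreated arm, where no DKO array shares one; as a random block it gave 63.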
